A study of Mus musculus with 2 samples.

Results

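Glutathione transferases and the quinone reductase gene Nqo1 were described in 2 RNA sequencing libraries of mouse embryonic fibroblasts. The members are 10 genes picked by name, out of 25430 distinct names in the deposited table, where each had 1 row in capitals (GSTA4, GSTM1, GSTM2, GSTM5, GSTP1, GSTT1, GSTO1, MGST1, MGST3 and NQO1). Results of these data were known when the 10 were chosen, so their ratios are a description and no test is made on them. The fibroblasts were primary cultures from embryos of stage E13.5, taken from matings of mice heterozygous for Sptbn1, the gene of beta-2 spectrin, a protein of the membrane skeleton. The labels give 1 library as wild type and 1 as Sptbn1 knockout, homozygous by the title of the series. The cells were replated once the cultures were confluent, in medium with fetal bovine serum. No drug, oxidant or other treatment is named in the labels for either library, and they do not say how many embryos each library came from.

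With 1 library per genotype, no difference can be set against a spread between cultures, and every statement compares 2 libraries. Levels are the FPKM values that the authors deposited, which scale fragment counts to transcript length and library size. Ratios are log2((knockout FPKM + 1)/(wild-type FPKM + 1)) unless the sentence says otherwise. The pseudocount of 1 understates the differences of low genes. Measured genes are those averaging 1 FPKM or more over both libraries, 11070 in all, with 10 of the 10 members among them. Sptbn1 itself was listed at 36.6 FPKM in the knockout cells and 69.6 FPKM in the wild-type cells, a log2 ratio of -0.91, lower in the library labelled knockout but with 52.5% of the wild-type level remaining. A value per gene does not show whether the deleted part of the transcript is lost. The header of the wild-type column also carries a -/- mark, and its reading as wild type rests on the title WT. All 12 fibroblast markers were measured, 10 of them below 0, with a median of -0.08. Of all measured genes 63.1% were below 0, with a median of -0.05. The proteoglycan gene Dcn was at 239 FPKM in the knockout cells and 300.1 FPKM in the wild-type cells (-0.33), Twist1 at -0.28, Pdgfra at -0.24 and Col3a1 at -0.10.

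Glutathione transferases join the tripeptide glutathione to reactive, electron-poor compounds, which makes these less harmful and easier to export. The soluble enzymes fall into classes named alpha, mu, pi, sigma, theta, omega, zeta and kappa, and the microsomal enzymes are small membrane proteins of a separate family. NQO1 reduces quinones to hydroquinones. Several of these genes, Nqo1 above all, are known targets of NRF2 (gene Nfe2l2), a transcription factor held back by KEAP1 until oxidants or electrophiles release it, and some also respond to the aryl hydrocarbon receptor.

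Members of 1 class can be so alike that a read fits more than 1 gene, which decides how far each level can be trusted. The first 60 coding bases of 3 pairs are shown for this reason, from GENCODE M21, with capitals at bases that differ from the first gene of the pair.
Gstp1: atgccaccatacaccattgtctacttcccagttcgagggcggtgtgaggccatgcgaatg
Gstp2: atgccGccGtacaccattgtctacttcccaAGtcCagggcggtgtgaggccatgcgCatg
Gstm1: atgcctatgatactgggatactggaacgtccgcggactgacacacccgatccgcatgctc
Gstm2: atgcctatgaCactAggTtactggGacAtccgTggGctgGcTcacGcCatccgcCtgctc
Gsta4: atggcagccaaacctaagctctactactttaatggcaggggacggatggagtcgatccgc
Gsta2: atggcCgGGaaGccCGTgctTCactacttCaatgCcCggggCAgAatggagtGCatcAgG

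Gstp2 differed from Gstp1 at 6 of these 60 bases, Gstm2 from Gstm1 at 12 and Gsta2 from Gsta4 at 19. Over the whole coding sequence Gstp1 and Gstp2 were 98.1% identical, Gstm1 and Gstm2 85.9%, and Gsta4 and Gsta2 67.1%. Among the members, Gstm5 stood apart from the other mu genes, at 70.0% identity with Gstm1 and 71.1% with Gstm2. Of the 50-base windows along the Gstp1 transcript, 62.3% were also found, on either strand, in transcripts of another gene, namely Gstp2 and the pseudogene Gstp-ps. That share was 23.1% for Gstm1 (with Gstm2, Gstm3 and 3 pseudogenes or predicted genes), 14.4% for Gstm5 and 9.36% for Gstm2. The Gstm5 windows were shared with 4933431E20Rik alone, listed at 0.582 FPKM in the knockout cells and 0.544 FPKM in the wild-type cells. Whether strand was used in counting is not stated, so fragments of overlapping genes may not be told apart. Gsta4, Gstt1, Gsto1, Mgst1, Mgst3 and Nqo1 had no shared window. The levels of Gstp1, Gstm1, Gstm5 and Gstm2 are therefore uncertain in a way that those of the other 6 are not. Levels in this table can also be far below those usual for a gene, with the peroxidase gene Gpx4 listed at 0.355 FPKM in the knockout cells and 0.397 FPKM in the wild-type cells (chosen after its values were seen).

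Gsto1 and Mgst1 were the most abundant members in both libraries, and on the deposited scale Gsta4 and Gsto1 had the lowest ratios. Of the 10 members, 4 had a log2 ratio below 0 and 6 above 0, against 63.1% of all measured genes below 0 and 36.9% above 0. The median of the members was 0.04 and that of all measured genes -0.05. One member was at least 2-fold lower (Gsta4), where 0.379% of measured genes were, and none was at least 2-fold higher, where 0.361% were. At 1.5-fold the members lower were 2 (Gsta4 and Gsto1), against 1.23% of measured genes, and none was higher, against 1.04%. Within 1.2-fold lay 7 members, against 83.8% of measured genes, the others being Gsta4, Gsto1 and Gstt1. On a common FPKM sum Gsta4 was at -0.67 and Gsto1 at -0.15, and 0 members were at least 2-fold lower, against 0.235% of measured genes. Since the contrast helped to choose the members, these shares are background only.

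**Figure D1:**
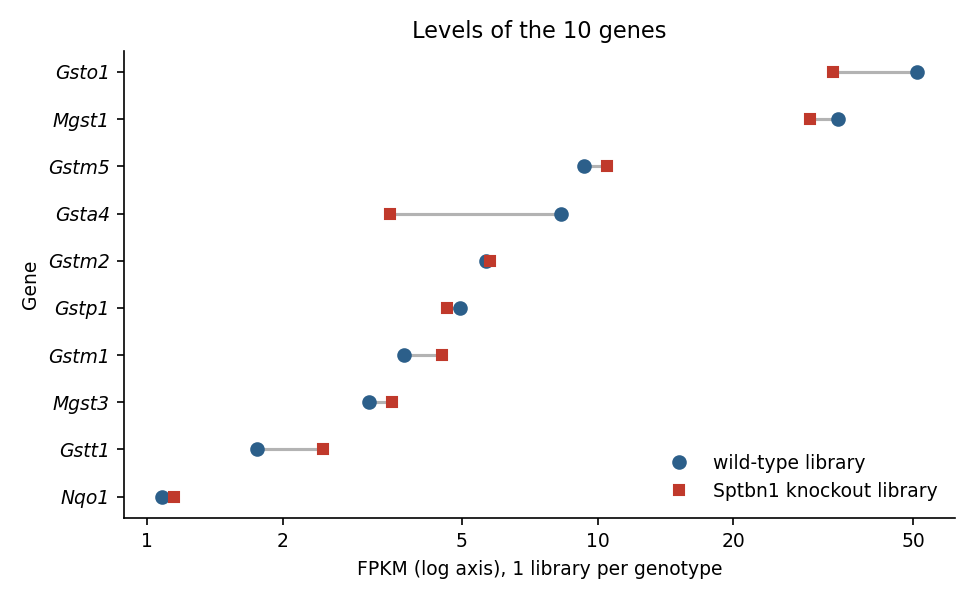
FPKM of each of the 10 genes on a log axis, 1 circle for the wild-type library and 1 square for the Sptbn1 knockout library, joined by a line. Gsta4 has the longest line, from 8.29 FPKM in the wild-type library to 3.46 FPKM in the knockout library, and for Gstm2 the symbols overlap.

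The deposited values let the counting error be estimated. Among genes below 0.3 FPKM with a single annotated transcript over 1500 bases, FPKM times length fell on steps, as whole fragments would give. After 175 bases were taken off each length, 1 step was worth 0.0547 FPKM times kilobase for the knockout and 0.0340 for the wild type. Up to 5 steps, 74.8% of 250 genes in the knockout library and 76.7% of 245 genes in the wild-type library lay within 0.1 of a whole number. One fragment thus weighed 1.61 times as much in the knockout library, the shallower of the pair. From these steps and the length of each member's RefSeq-matched transcript, the members rested on about 29 to 1514 fragments per library. The 95% intervals below come from these estimated fragments, by the exact (Clopper-Pearson) method and without a pseudocount. They cover counting error only, not differences between cultures, and read-sharing adds to them for the 4 genes named above. The scaling of the deposited values is taken as exact in them, so their place relative to 0 holds for that scale only.

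Gsta4, the alpha-class enzyme best known for conjugating hydroxynonenal, a toxic product of lipid peroxidation, was at 3.46 FPKM in the knockout cells and 8.29 FPKM in the wild-type cells. The knockout value was 41.7% of the wild-type value, a log2 ratio of -1.06, and 0.334% of measured genes had a lower ratio. About 51 fragments in knockout cells and 196 in wild-type cells lay behind these levels, giving a log2 ratio without pseudocount of -1.25 with a counting interval from -1.73 to -0.80. Gsta4 fell from the fourth most abundant member in the wild-type library to the eighth in the knockout library. On either side of the 2-fold limit the nearest members were Gsta4 at -1.06 and Gsto1, well short of it, at -0.60. In the authors' deposited table Gsta4 had a p-value of 0.000502021. The other alpha genes were hardly detected: Gsta1 was listed at 0 in both libraries, Gsta2 at 0.0794 FPKM in knockout cells and 0 in wild-type cells, and Gsta3 at 0.18 against 0.20 FPKM. Alpha-class expression in these libraries was therefore almost all Gsta4. The nearest protein-coding genes on its other side by gene order in GRCm38.p6 did not share its ratio, with Cilk1 at -0.10 and Fbxo9 at 0.15.

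Among all measured genes, leaving out names of predicted and small RNA genes, the 3 closest to Gsta4 in the pair of log2(FPKM + 1) values were Rpl35a, Rps4l and Cxcl11. Their log2 ratios were -0.78, -0.85 and -0.81, and their distances from Gsta4 were 0.23, 0.24 and 0.25 log2 units. With 2 libraries, likeness here is a match of 2 values.

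Gsto1, the omega-class enzyme, which reduces dehydroascorbate and methylated arsenic compounds more than it conjugates, was the most abundant member in both libraries. It was at 33.3 FPKM in the knockout cells and 51.0 FPKM in the wild-type cells, which left 65.3% of the wild-type value and a log2 ratio of -0.60. Of the measured genes, 1.17% had a lower ratio. The estimate of 613 fragments against 1514 made this one of the best-counted members, with a log2 ratio without pseudocount of -0.62 and a counting interval from -0.75 to -0.48. That interval did not overlap the interval of Gsta4, although their nearest ends, -0.75 and -0.80, lay close together. In the authors' deposited table Gsto1 had a p-value of 0.000677153. Its neighbour Gsto2 was below the measured limit, at 0.655 FPKM in the knockout cells and 0.643 FPKM in the wild-type cells, and near-equal in both. Sfr1 and Itprip, each 2 places from Gsto1, had log2 ratios of 0.03 and -0.11.

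Gsta4 and Gsto1 were the 2 members with p-values under 0.05 in the authors' deposited table, as 5.6% of measured genes had. Without replicate cultures those p-values hold no spread between cultures.

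Mgst1, a transferase and peroxidase of the endoplasmic reticulum and outer mitochondrial membrane, was at 29.6 FPKM in the knockout cells and 34.0 FPKM in the wild-type cells. Its log2 ratio was -0.19. About 537 fragments against 994 gave a counting interval from -0.35 to -0.05, below 0 but reaching the median of all measured genes. In the authors' deposited table Mgst1 had a p-value of 0.32637. Mgst3, a microsomal relative with peroxidase activity, was at 3.49 FPKM in the knockout cells and 3.11 FPKM in the wild-type cells (0.13), with a counting interval from -0.34 to 0.66. Mgst2 was listed at 0.516 against 0.241 FPKM, below the measured limit.

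The mu-class genes, which handle a wide range of electrophiles and lie next to each other on 1 chromosome, had near-equal values. Gstm5, the most abundant of them, was at 10.5 FPKM in the knockout cells and 9.33 FPKM in the wild-type cells (0.15). Gstm2 was at 5.78 FPKM in the knockout cells and 5.64 FPKM in the wild-type cells (0.03), the smallest difference of any member. Gstm1 stood at 4.52 against 3.71 FPKM (0.23). Gstm4, measured but not a member, was at 1.17 against 1.10 FPKM (0.05). All 4 measured mu genes were thus slightly above 0, but the counting intervals of Gstm5 (-0.15 to 0.47), Gstm2 (-0.36 to 0.42) and Gstm1 (-0.13 to 0.68) each included 0. Gstm3 was listed at 0 in both libraries, and Gstm6 and Gstm7 lay below 0.4 FPKM. Ampd2, the first gene beyond the cluster on the Gstm4 side, was at -0.17, and Csf1, 2 places beyond Gstm5, at 0.08.

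Gstp1, the pi-class enzyme abundant in many epithelia and tumours, was at 4.63 FPKM in the knockout cells and 4.94 FPKM in the wild-type cells (-0.08, counting interval -0.59 to 0.41). Its near copy Gstp2 was listed at 0.0933 against 0.0580 FPKM. How Cufflinks divided the shared fragments between them is not shown by the table. Gstt1, a theta-class enzyme acting on small halogenated compounds, had the highest ratio of the members, 0.32, at 2.45 FPKM in the knockout cells and 1.76 FPKM in the wild-type cells. It rested on about 39 and 45 fragments, and its counting interval from -0.18 to 1.13 included both 0 and a 2-fold rise. Gstt3, its neighbour, was at 1.80 against 1.84 FPKM (-0.02).

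Nqo1 was the least abundant member, at 1.15 FPKM in the knockout cells and 1.08 FPKM in the wild-type cells, and 2.47% of measured genes had a lower mean. Its log2 ratio was 0.05. With about 29 fragments against 44, the counting interval ran from -0.64 to 0.80, so a difference of 1.5-fold in either direction could not be told from none at this depth. In the authors' deposited table Nqo1 had a p-value of 0.856952, and the 7 genes Gstm1, Gstm2, Gstm5, Gstp1, Gstt1, Mgst3 and Mgst1 had p-values from 0.294358 (Gstt1) to 0.915486 (Gstm2). The related reductase gene Nqo2 was higher than Nqo1 in both libraries, at 3.38 FPKM in the knockout cells and 3.99 FPKM in the wild-type cells (-0.19).

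**Figure D2:**
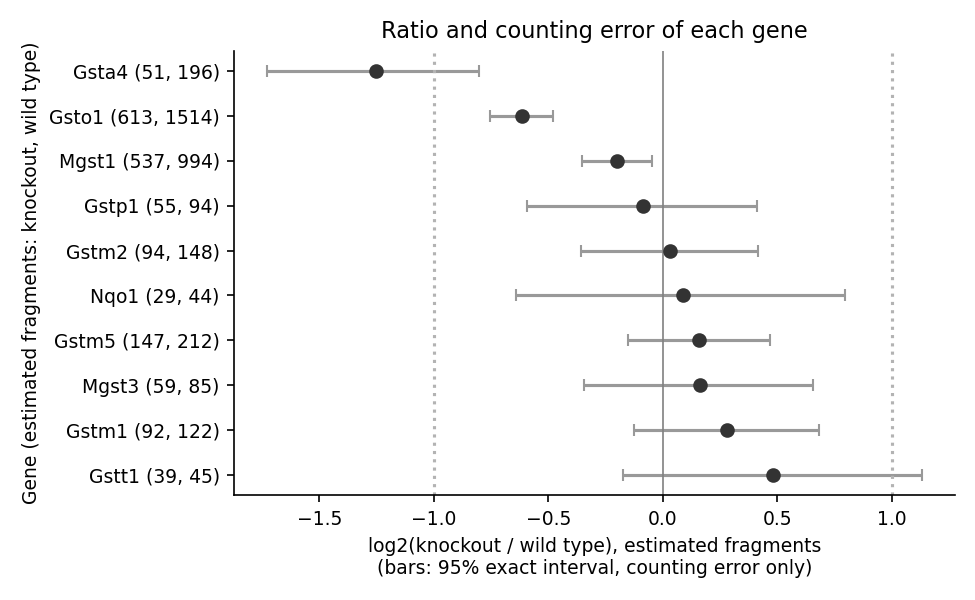
Log2 ratio of knockout over wild type for each of the 10 genes, from estimated fragments without a pseudocount, with 95% exact intervals for counting error. On the deposited scale the intervals of Gsta4, Gsto1 and Mgst1 lie below 0 and those of the other 7 genes include 0. Those of Nqo1 and Gstt1 are the widest.

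The order of levels was alike in both libraries except for Gsta4. Gsto1, Mgst1 and Gstm5 took the first 3 places and Gstt1 and Nqo1 the last 2 places in each. Between them, Gstm2, Gstp1, Gstm1 and Mgst3 kept 1 order, and Gsta4 stood above these 4 in the wild-type library and below them in the knockout library. In the knockout library Gsta4 and Mgst3, at 3.46 and 3.49 FPKM, could not be ranked on about 51 and 59 fragments. Nor could Gstp1 and Gstm1, at 4.63 and 4.52 FPKM there on about 55 and 92 fragments, both with windows shared with other genes.

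Summed over 24 glutathione transferase genes of 8 classes (the sigma gene Hpgds, at 1.90 against 1.77 FPKM, was left out), the level was 112 FPKM in the knockout cells and 132 FPKM in the wild-type cells, or 84.3% of the wild-type sum. Gsto1 and Mgst1 together made up 56.4% of the knockout total and 64.3% of that in wild type. Without Gsto1 the knockout sum was 96.2% of the wild-type sum, and without Gsto1 and Gsta4 it was 102%. Over the whole table FPKM summed to 279927 for the knockout and 386567 for the wild type. The percentages of wild type given here therefore hold for the deposited scale only. By class, alpha genes made up 3.34% of the total in knockout cells and 6.42% in wild-type cells, omega genes 30.5% and 39.1%, and mu genes 20.2% and 15.1%. Such shares move with the omega total, and the mu sum itself was 113% of its wild-type value. The theta sum was 120% and the zeta gene Gstz1 125% of wild type. Most of the theta difference was that of Gstt1, whose counting interval included 0. The kappa gene Gstk1, a mitochondrial and peroxisomal enzyme, was at 2.60 against 1.30 FPKM. That was 199% of wild type, and a log2 ratio of 0.64 with the pseudocount. No counting interval was estimated for Gstk1, and its p-value in the authors' deposited table was not below 0.05.

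**Figure D3:**
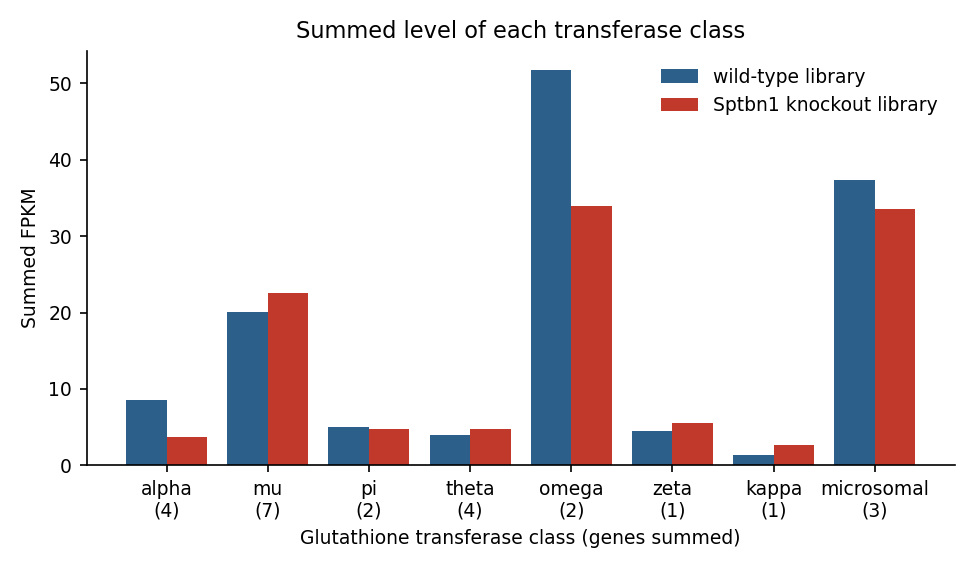
Summed FPKM of each glutathione transferase class in the wild-type library (blue bars) and the Sptbn1 knockout library (red bars), with the number of genes summed in brackets. The omega and microsomal bars are the tallest, and the omega bar falls from 51.7 FPKM in the wild-type library to 34.0 FPKM in the knockout library.

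The members spanned most of the level range of measured genes, as the plot of ratio against level shows. Gsto1 and Mgst1 had higher means than 94.8% and 92.5% of measured genes. Gstm2 and Gsta4 lay near the middle, with 51.9% and 52.8% of measured genes below them, and their log2 ratios were 0.03 and -1.06.

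**Figure D4:**
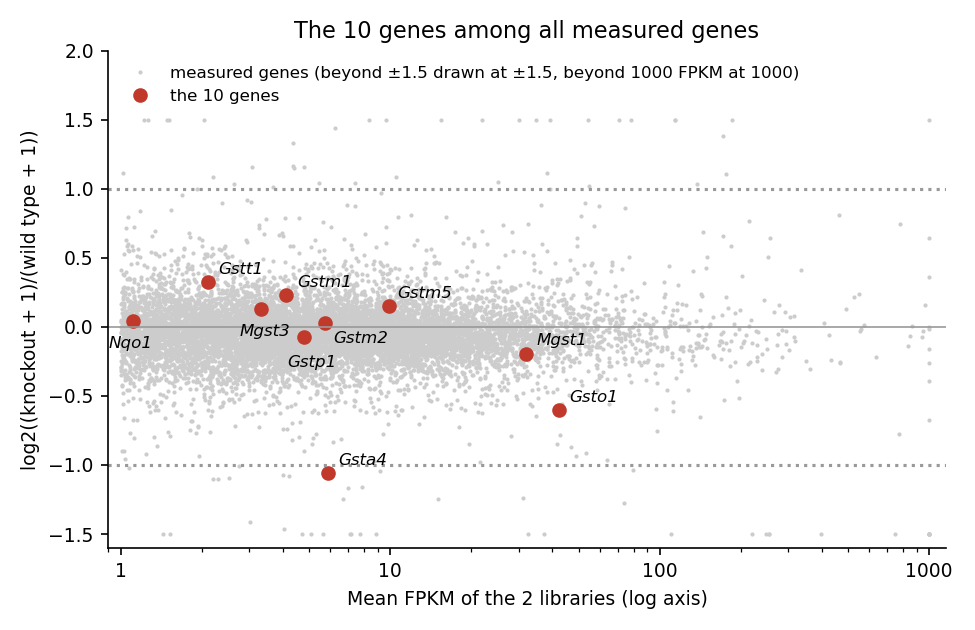
Log2 ratio against mean FPKM (log axis) for all measured genes (grey) and the 10 members (red), with dotted lines at 2-fold. Gsta4 lies below the lower dotted line, Gsto1 lies at -0.60, and the other 8 members sit within the grey band.

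Lists of related genes, some of which share genes, were laid beside the members. None of their measured genes passed 2-fold in either direction, where 0.379% of all measured genes were lower and 0.361% higher. In lists of this size, none is near those shares. Other glutathione transferases and microsomal relatives had 8 of 20 genes measured, 4 below and 4 above 0, with a median of 0.01. Besides Gstk1, the largest differences were those of Alox5ap, which presents arachidonate for leukotriene synthesis (9.70 against 13.6 FPKM, -0.45), Gstz1, an enzyme of tyrosine breakdown (5.60 against 4.49 FPKM, 0.27), and Gstcd (-0.27).

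Genes that make, recycle or use glutathione numbered 21 measured, of which 16 lay below 0, against 63.1% of all measured genes. Their median was -0.08, against -0.05 for all measured genes. The secreted peroxidase gene Gpx3 was at 21.6 FPKM in the knockout cells and 29.99 FPKM in the wild-type cells (-0.46), the glutaredoxin gene Glrx3 at 9.62 against 6.41 FPKM (0.52), Hagh at -0.24 and Chac1, which degrades glutathione, at 0.19. The genes of glutathione synthesis, Gclc (-0.04), Gclm (-0.17) and Gss (-0.11), and the reductase gene Gsr (-0.04) were within 1.2-fold, as were 83.8% of measured genes.

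Other NRF2 target genes numbered 26 measured, 19 of them below 0, with a median of -0.04. Of all measured genes 63.1% were below 0, with a median of -0.05. The carbonyl reductase genes Cbr3 and Cbr1 were on opposite sides, at 0.42 and -0.27, with Blvrb at 0.26 and the ferritin gene Ftl1 at -0.22. The haem oxygenase gene Hmox1 was at 27.7 against 32.2 FPKM (-0.21), and Txnrd1 (0.03) and Srxn1 (-0.03) were near 0. Genes of the NRF2 pathway itself had 8 of 13 below 0 and a median of -0.07, also near the values of all measured genes. Nfe2l2 was at 21.8 FPKM in the knockout cells and 23.0 FPKM in the wild-type cells (-0.08), and Keap1 at 3.44 against 3.65 FPKM (-0.07). The small MAF partners of NRF2, Maff and Mafk, had the largest differences, at -0.55 and -0.46, while Mafg was at 0.08. Cul3 was at -0.21 and Nfe2l3 at -0.17.

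The aryl hydrocarbon receptor list had 7 measured genes with a median of 0.07, with Arnt2 at -0.33, Tiparp at 0.19, Nqo2 at -0.19 and Cyp1b1, a common readout of the receptor in fibroblasts, at 34.6 against 30.3 FPKM (0.18). Further conjugating and detoxifying enzymes had 5 of 9 measured genes below 0 and a median of -0.02, with Nnmt at 0.36 and the joined Ugt1a entry at 0.17. Thioredoxin, peroxiredoxin and superoxide enzymes had 14 of 18 below 0, against 63.1% of all measured genes. Their median was -0.05, that of all measured genes, with Sod1 at 45.6 against 30.9 FPKM (0.55), Prdx4 at -0.29, Sod3 at -0.23 and Prdx5 at -0.17.

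**Figure D5:**
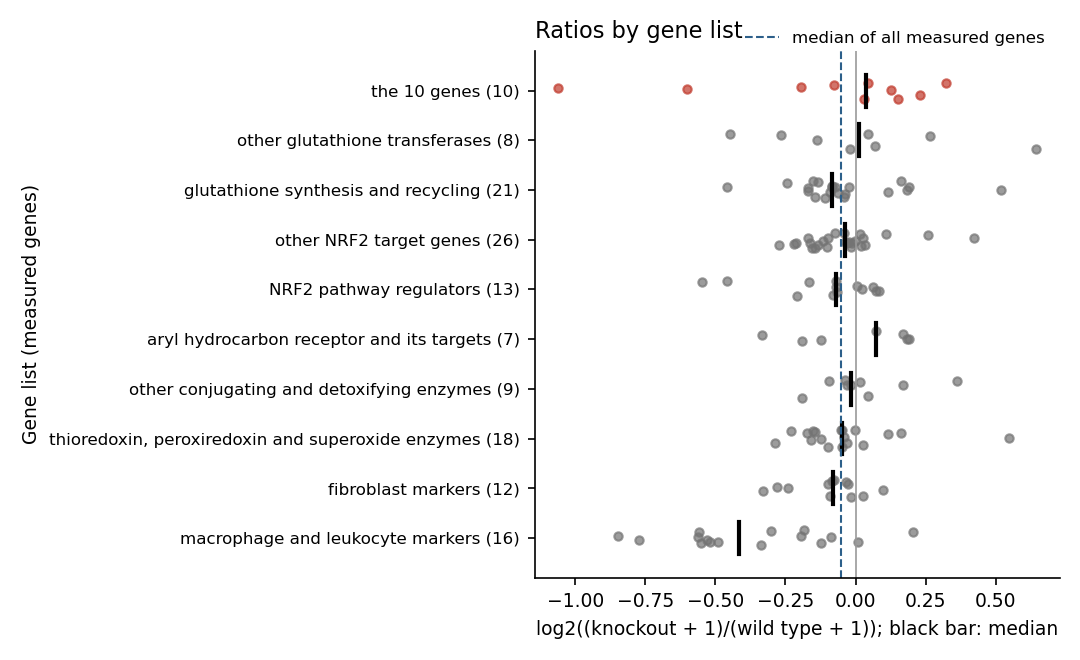
Log2 ratios of the measured genes of each list (points, scattered vertically for legibility), with the list median as a black bar and the median of all measured genes, -0.05, as a dashed line. Among the 10 members Gsta4 and Gsto1 stand to the left of the other points, and the macrophage and leukocyte markers have a median of -0.41.

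Promoter sequence was available from RefSeq (GRCm38.p6, 250 bases before to 50 after each start) for 9 of the 10 members, 11 promoters in all. The core of the NRF2 site, TGACNNNGC, was searched on both strands and found in the promoters of 2 members, Gstm5 and Mgst1. Sequence beyond this window was not searched, so a member without a match may have a site elsewhere. These matches are shown with the motif in capitals, to place the motif named in the background among the members.
Gstm5: caccgcccacTGACCACGCggagggcgggt
Mgst1: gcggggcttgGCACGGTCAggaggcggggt

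The Gstm5 window is chr3:107895802-107895831 on the plus strand of GRCm38.p6, and the Mgst1 window is chr6:138140461-138140490, also written along the plus strand, with its motif on the opposite strand. The reads themselves were aligned to NCBI build 37.2, on which positions differ. Of all 32851 promoters in the table, 12.4% held the motif, against 2 of the 11 member promoters. The core of the aryl hydrocarbon receptor site, GCGTG, was found in promoters of 4 members (Gstm1, Gstm5, Gstp1 and Mgst3). These were 5 of the 11 member promoters, against 32.4% of all promoters. In Gstm5 1 of its matches overlaps the TGACNNNGC match. Gstm5 (0.15) and Mgst1 (-0.19) were the members with the NRF2 core in this window, and a link between motif and ratio was not tested. Gsta4 is not among the 9.

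Markers of other cell types were read beside these values. Macrophage and leukocyte markers were lower in the knockout library, with 14 of 16 below 0, against 63.1% of all measured genes, and a median of -0.41. Their summed level was 840 FPKM against 1337 FPKM in the wild-type library, most of it the joined Lyz1 and Lyz2 entry (572 against 979 FPKM). C1qb was at -0.85, C1qc and Fcer1g both at -0.56, whereas Adgre1, a defining macrophage marker, was at 13.3 against 14.6 FPKM (-0.12) and Ptprc at 0.01. The part of these cells in the Gsta4 and Gsto1 values was not tested, and in bulk RNA fewer cells of a type and less RNA per cell cannot be told apart. Liver is rich in transferases, and hepatocyte markers were near absent, with none of 8 measured and summed levels of 0.243 FPKM in the knockout cells and 0.573 FPKM in the wild-type cells. Of 6 adipocyte markers, the 3 measured (Fabp4, Cd36 and Lpl) were below 0, from -0.53 to -0.37, and the defining marker Adipoq was listed at 0 in both libraries. Epithelial and endothelial markers had 1 of 6 measured each (Krt18 at 0.01 and Flt1 at -0.14), as did erythroid markers (Alas2, 0.27), with 4 of these 6 listed at 0 in both libraries.

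The zero point of these ratios depends on scaling. Summed FPKM came to 279927 for the knockout and 386567 for the wild type, and on a common sum the median of all measured genes moved to 0.33. There Gsta4 was no longer past 2-fold and Gsto1 no longer past 1.5-fold. Below 0 were 2 members, against 5.09% of measured genes, since Mgst1 (0.26) and Gstp1 (0.31) turned positive. The order of the members' ratios at the lower end, Gsta4, Gsto1 and Mgst1, was the same on that scale. Centring on the median gene left Gsta4 at -1.01. Another common sum, added after the data were seen, left out rows with small RNA, predicted-gene or Rik names. The outlying rows Rn7sk, Rpph1 and Dnaja1, picked by hand, were left out too. On it the median of all measured genes was -0.07. With those rows left out Gsta4 was at -1.08 and Gsto1 at -0.62.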

How the data were processed

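RNA from 1 wild-type and 1 Sptbn1 knockout fibroblast culture was sequenced, with libraries made from 1 µg of total RNA by the Illumina TruSeq kit, per the labels' protocols. The authors deposited FPKM per gene and a p-value per gene, per the file headers. FastQC, Trimmomatic, TopHat2 version 2.0.10, NCBI mouse build 37.2, Cufflinks and Cuffdiff2 are named in the series' design text and the submitters' processing notes. Other settings, the strand handling and the depth are not given there. Names on several rows were reduced to the row of highest mean. Ratios, counts and lists were computed with Python 3.11.15, numpy 2.4.6 and pandas 2.3.3. The ratio, the 2-fold calls and the reduction of repeated names were tried on simulated data. There the changes were larger than 2-fold and the levels above those of most members. Lists and fragment steps were not tried in this way. No test was run, because each genotype had 1 library. Older names were matched through RefSeq GRCm38.p6, and Nat1 was not matched. Fragment steps, intervals (scipy 1.17.1), coding identity (global alignment, biopython 1.88) and shared windows (50 bases, since no read length is given) used GENCODE M21 transcripts, whose models differ from the authors'.

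The 10 members, the 7 gene lists, the 7 marker lists and the alternatives were chosen with earlier results of these data known. Named were the members, Sptbn1, up to 4 measured genes per list with the largest differences, and the 3 genes nearest to a member past 2-fold. The value of 1 gene that this rule takes is not reported here. Gene-order neighbours, the other transferases and further list genes were added once their values had been seen. Alternatives were another pseudocount, 4 scalings, 2 filters and the summing of repeated names.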

Additional observations from a re-analysis of the deposited data

How the results depend on the processing

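With 1 library per genotype no library could be left out. No paired analysis was possible because each group had 1 sample. As deposited, the members' median log2 ratio was 0.04, with 4 below 0 and 1 at least 2-fold lower. On a common FPKM sum the median was 0.37, 2 members were below 0 and 0 were at least 2-fold lower. Of measured genes on that sum, 5.09% were below 0 and 0.235% at least 2-fold lower. There 9 of 10 members' ratios moved by 0.3 or more on the log2 scale, 2 changed sign, and 8 of 13 list medians changed sign. Measured genes at least 2-fold lower and higher numbered 42 and 40 as deposited, 26 and 104 on that sum, and 72 and 60 with a pseudocount of 0.1 FPKM. Under that pseudocount, centring on the median gene and a common upper quartile, no member changed sign. The same held on the common sum without small RNA, predicted-gene, Rik and outlying rows (added after the data were seen). Across these settings Gsta4 ranged from -1.24 to -1.01. Summing repeated names could not change any member, since each had 1 row. A mean of 5 FPKM or more left 5 members with a median of -0.19. Depth limits Nqo1 and Gstt1 most, with under 50 estimated fragments in each library.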
